A study of Bos taurus with 3 samples.

Results

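The genes described are TGFB1, TGFB2, TGFB3, TGFBR1, TGFBR2, SMAD7 and TGFBI, taken by their symbols from the gene lists of 3 bovine single-cell RNA libraries. They are 7 of the 21861 genes counted, and each symbol occurs 1 time. TGF-beta is made as 3 secreted ligands, encoded by TGFB1, TGFB2 and TGFB3, which are stored in the matrix as latent complexes and act only after release. The active ligand binds the type II receptor TGFBR2, which recruits and phosphorylates the type I receptor TGFBR1, and this kinase passes the signal to SMAD proteins that enter the nucleus. SMAD7 is an inhibitory SMAD, induced by TGF-beta and by BMP signals, that blocks the type I receptor. TGFBI encodes a secreted matrix protein first found as a TGF-beta-induced gene in a human lung carcinoma cell line, and it is made by fibroblasts and by macrophages. In mesenchymal stromal cells (MSCs) the pathway is known for driving matrix production and for its part in cartilage formation and immune control.

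The donor was a single Holstein-Frisian cow (Bos taurus), healthy and in first lactation (1 animal). Cells of its adipose tissue, its bone marrow and its peripheral blood were cultured, and the study profiled each culture when MSC colonies had formed. The labels name the cultures AT-MSC, BM-MSC and PB-MSC, give the genotype WT and the treatment None for all 3, and state low-glucose DMEM with 30% fetal bovine serum. Bovine serum carries TGF-beta of its own, in all 3 cultures. Each tissue gave 1 library with the 10x Genomics 3' chemistry, so no difference between tissues has a replicate, and none is tested: tissue, culture and library cannot be told apart.

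Levels are counts of unique molecular identifiers (UMIs) summed over cells and scaled to a total of 1000000 (CPM), and all intervals are exact 95% intervals that cover counting error only. A gene was called apart when its CPM differed at least 2-fold and was at least 10 CPM in the higher group. A gene below 10 CPM in 1 group could therefore not be called higher in that group. A 3' UMI count does not scale with transcript length, but capture differs between genes, so fold changes compare 1 gene between groups of cells. The adipose library held 99356868 UMIs, the bone marrow library 106322567 and the blood library 98016815, and 6088, 9281 and 3192 cells were kept, with medians of 14391, 9096 and 24884 UMIs per cell. Between 4 and 10 kept barcodes were shared by a pair of libraries. Clustering without the 7 genes and without the other genes of the pathway lists gave stromal-like cells in each culture, 6026 from adipose tissue, 8304 from bone marrow, 3036 from blood, with 13 or 14 of 16 stromal markers at 50 CPM or more. Macrophage-like clusters held 514 cells in bone marrow and 156 in blood. In the adipose library none of 20 macrophage markers reached 50 CPM over all cells, their sum was 20.5 CPM, and ITGAM, C1QB and C1QC were at 0. It held 39 endothelial-like cells and 23 cells left unnamed. A bone marrow cluster of 463 cells carried both macrophage and stromal markers and is called mixed. The doublet caller marked 0 cells in each library and so did not work, and doublets were not removed.

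The 3 ligands differed between the cultures, each in its own way. TGFB1 (ENSBTAG00000020457), the ligand made by most cell types, was at 45.3 CPM in adipose tissue, 95.1 CPM in bone marrow and 41.3 CPM in blood over all kept cells. TGFB2 (ENSBTAG00000005359), a ligand with known roles in the development of heart, eye and skeleton, was at 5.73, 20.2 and 19.1 CPM in the same order. TGFB3 (ENSBTAG00000012004), known from palate fusion in the mouse and from the culture of cartilage, was at 5.36, 4.25 and 10.3 CPM. Bone marrow was thus highest for TGFB1, adipose tissue lowest for TGFB2, and blood highest for TGFB3. The stromal-like cells alone gave nearly the same levels: TGFB1 was at 45.4, 95.5 and 41.2 CPM, TGFB2 at 5.55, 21.6 and 19.4 CPM, and TGFB3 at 5.37, 4.50 and 10.5 CPM.

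TGFB1 was 2.10-fold lower in adipose tissue than in bone marrow (2.02 to 2.18) and 2.30-fold higher in bone marrow than in blood (2.21 to 2.39). TGFB2 was 3.54-fold lower in adipose tissue than in bone marrow (3.21 to 3.90) and 3.33-fold lower than in blood (3.02 to 3.67). Bone marrow and blood were 1.06-fold apart for TGFB2 (0.995 to 1.13), an interval that includes equal levels. TGFB3 was 2.43-fold lower in bone marrow than in blood (2.16 to 2.73). Adipose tissue over blood fell just short of the 2-fold mark for TGFB3, at 1.93-fold lower (1.73 to 2.15), and adipose tissue over bone marrow was below the 10 CPM minimum in both libraries.

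Because the 3 genes are counted in the same cells, the make-up of the ligand UMIs can be compared between cultures, with the limit that capture may differ between the 3 transcripts. TGFB1 gave 80.6% of the ligand UMIs of stromal-like cells in adipose tissue (79.5 to 81.7), 78.5% in bone marrow (77.7 to 79.3) and 58.0% in blood (56.7 to 59.2). TGFB2 gave 9.85%, 17.8% and 27.3%, and TGFB3 gave 9.53%, 3.70% and 14.7%. The blood stroma thus carried the most even mixture of ligand transcripts, and the bone marrow stroma the smallest share of TGFB3.

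The receptor genes differed little between the cultures. TGFBR1 (ENSBTAG00000018035), the type I receptor kinase, was at 12.2 CPM in adipose tissue, 10.6 CPM in bone marrow and 17.0 CPM in blood. TGFBR2 (ENSBTAG00000019832), the ligand-binding type II receptor, was at 10.7, 10.1 and 11.9 CPM. None of the 6 receptor ratios between tissues reached 2-fold. The widest was TGFBR1 in bone marrow over blood, 1.60-fold lower (1.48 to 1.74). For TGFBR2 the intervals of neighbouring levels overlapped, so no order of the 3 cultures is given over all cells. In stromal-like cells alone TGFBR2 was at 10.6, 7.03 and 11.1 CPM, and bone marrow was 1.58-fold lower than blood (1.43 to 1.75).

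SMAD7 (ENSBTAG00000012441), the feedback inhibitor, was at 29.4 CPM in adipose tissue, 66.0 CPM in bone marrow and 39.9 CPM in blood. It was 2.24-fold lower in adipose tissue than in bone marrow (2.14 to 2.34). In bone marrow over blood it was 1.65-fold higher (1.59 to 1.72), which is within 2-fold. SMAD7 thus had its highest level in the same library as TGFB1. Among stromal-like clusters of a library these genes did not go together throughout. The cluster of lowest TGFB1 had the highest SMAD7 in adipose tissue and in bone marrow, while in blood the same cluster was highest for both.

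TGFBI (ENSBTAG00000009513), the secreted matrix protein, was lowest in bone marrow. Its level was 58.7 CPM in adipose tissue, 19.0 CPM in bone marrow and 73.7 CPM in blood over all cells. In stromal-like cells it was 59.0, 8.82 and 66.3 CPM. Bone marrow was the low library in both sets of cells. Adipose tissue was 3.09-fold higher than bone marrow over all cells (2.93 to 3.25) and 6.69-fold higher in stromal-like cells (6.21 to 7.22). Bone marrow was 3.88-fold lower than blood over all cells (3.68 to 4.08) and 7.52-fold lower in stromal-like cells (6.97 to 8.11).

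**Figure D1:**
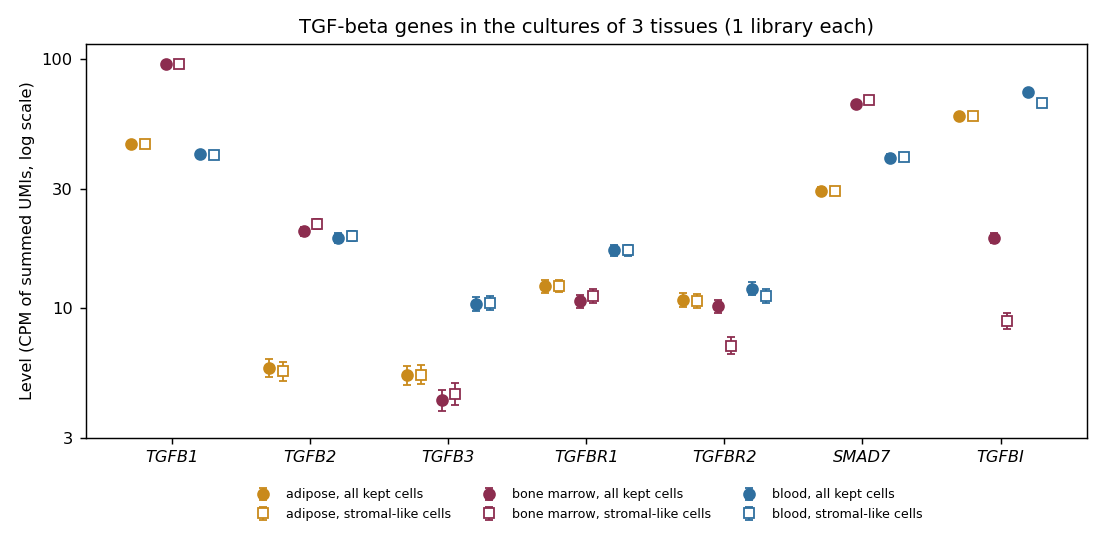
The vertical axis is the CPM of each gene on a log scale, for the adipose, bone marrow and blood libraries from left to right within each gene. Filled circles are all kept cells, open squares stromal-like cells, and bars exact 95% intervals for counting error. TGFB1 and SMAD7 are highest in bone marrow, TGFB2 is lowest in adipose tissue, and the open square for TGFBI in bone marrow lies at 8.82 CPM, below the filled circle at 19.0 CPM.

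By the 2-fold rule, 4 of the 6 genes that reached 10 CPM were apart in adipose tissue over bone marrow, 1 higher and 3 lower, where 8.47% of all 7324 genes tested were apart. The same 4 genes were apart in stromal-like cells, against 7.38% of all genes. In adipose tissue over blood 1 of 7 was apart (TGFB2), against 6.29% of all genes, or 5.89% in stromal-like cells. In bone marrow over blood 3 of 7 were apart (TGFB1 higher, TGFB3 and TGFBI lower), against 8.2% of all genes, or 7.94% in stromal-like cells. The 3 pairs share libraries, so these counts are not independent of each other. Of the genes called, TGFB2 was below 10 CPM in adipose tissue, TGFB3 in bone marrow and TGFBI in bone marrow stromal-like cells. In those pairs each of them could be called in 1 direction only.

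Macrophage-like cells of the bone marrow culture carried 2 of the 7 genes at levels far above the stroma. TGFBI was at 185 CPM in the macrophage-like cells (639 UMIs) and at 8.82 CPM in the stromal-like cells (773 UMIs), 21.0-fold higher (18.8 to 23.3). TGFBR2 was at 66.6 CPM in the macrophage-like cells and at 7.03 CPM in the stromal-like cells, 9.47-fold higher (8.10 to 11.0). The other receptor gene did not follow: TGFBR1 was at 7.81 CPM in macrophage-like cells and 11.1 CPM in stromal-like cells, 1.42-fold lower with an interval that includes equal levels (0.972 to 2.17). TGFB1 was also nearly level, at 83.9 CPM in macrophage-like cells and 95.5 CPM in stromal-like cells, 1.14-fold lower (1.01 to 1.28).

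The other ligands and the feedback gene were lower in the bone marrow macrophage-like cells. TGFB2 had 1 UMI in the macrophage-like cells and 1893 in the stromal-like cells, or 0.289 and 21.6 CPM, 74.7-fold lower with an interval of 13.4 to 2951. The 511 of these cells with a low share of stromal-marker UMIs had 0 UMIs of TGFB2, at least 24.5-fold lower against a floor of 3 UMIs. TGFB3 had 1 UMI in the macrophage-like cells and 394 in the stromal-like cells, but its higher level, 4.50 CPM, is below the 10 CPM minimum. SMAD7 was at 19.7 CPM in the macrophage-like cells and 68.2 CPM in the stromal-like cells, 3.47-fold lower (2.73 to 4.47). TGFB1 therefore made up 99.3% of the ligand UMIs of these cells (97.6 to 99.9). In all, 4 of 6 genes tested were apart, 2 in each direction, against a background of 52.1% of all genes between these cell types. TGFBI and TGFBR2 were below 10 CPM in the stromal-like cells, so they could not be called lower.

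The macrophage-like cells gave 3.50% of the UMIs of the bone marrow library but 34.0% of its TGFBI UMIs (31.9 to 36.2) and 23.0% of its TGFBR2 UMIs (20.4 to 25.7). The mixed cells gave 24.8% of the TGFBI UMIs and 15.4% of the TGFBR2 UMIs from 7.79% of all UMIs. The stromal-like cells, with 88.7% of all UMIs, gave 41.2% of the TGFBI UMIs. Most TGFBI transcripts of the bone marrow library thus lay outside the stromal-like cells, while in blood the stromal-like cells gave 85.8% of them and in adipose tissue 99.8%. In the mixed cells TGFBI was at 60.6 CPM, against 8.82 CPM in stromal-like cells, 6.87-fold higher (6.11 to 7.71), and TGFBR2 was 2.85-fold higher (2.37 to 3.40). These were the 2 of 6 genes tested that were apart in the mixed cells, against a background of 6.05% (429 genes higher and 16 lower). Both were below 10 CPM in the stromal-like cells, so they could not be called lower. The mixed cells had a median of 14212 UMIs, against 9108 in the stromal-like cells, and whether they are doublets was not tested.

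The label of the macrophage-like cells rests on 19 of 20 macrophage markers at 50 CPM or more in bone marrow, with a summed level of 17582 CPM, against 39.0 CPM in the stromal-like cells. Of 9 neutrophil markers, S100A8, S100A9 and S100A12, calgranulins that monocytes also express, were above 50 CPM with a sum of 26372 CPM for the list, while the other 6 (CSF3R, CXCR2, MPO, ELANE, LTF and PGLYRP1) were at 0. Their part in the levels above was not tested. The median depth was 5895 UMIs in the macrophage-like cells and 9108 in the stromal-like cells.

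In blood the macrophage-like cluster joined cells of low and of high stromal-marker share. Of its 156 cells, 77 had a share below 0.25 times the median of the blood library. These had a median of 9876 UMIs, and the other 79 cells had 30981, against 24924 in the stromal-like cells. Whether the 79 cells are doublets was not tested. The whole cluster had 17 of 20 macrophage markers at 50 CPM but also 14 of 16 stromal markers, with sums of 4868 and 12453 CPM. The 77 cells of low stromal share had all 20 macrophage markers at 50 CPM and 4 of 16 stromal markers, with sums of 13592 and 553 CPM. Values are given for the cluster and for these 77 cells. In bone marrow 511 of the 514 cells met the same condition, and in them the same 4 genes were apart, against 52.3% of all genes. Of 10 T and NK cell markers, NKG7 and IL7R were above 50 CPM in the low-share cells of both cultures, with sums for the list of 874 CPM in bone marrow and 474 CPM in blood, while CD3D, CD3G and CD2 were at 0, and the part of such cells was not tested.

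TGFBI was at 226 CPM in the blood cluster and at 66.3 CPM in the stromal-like cells, 3.42-fold higher (3.18 to 3.66). In the 77 cells it was at 492 CPM, 7.43-fold higher than in the stromal-like cells (6.71 to 8.19). TGFBR2 was at 28.0 CPM in the cluster and 11.1 CPM in the stromal-like cells, 2.52-fold higher (2.06 to 3.06), and at 64.6 CPM in the 77 cells, 5.81-fold higher (4.36 to 7.61). Both measured levels lay above those of the stroma in either set of cells. For the whole cluster the share of free RNA is not known, as given below.

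The ligands and SMAD7 depended on which cells were taken. In the cluster TGFB2 was at 12.2 CPM, TGFB3 at 7.30 CPM and SMAD7 at 28.5 CPM, against 19.4, 10.5 and 40.5 CPM in the stromal-like cells, and all 3 were within 2-fold. The 77 cells had 0 UMIs of TGFB2, at least 5.61-fold lower than the stromal-like cells when set against a floor of 3 UMIs. They had 2 UMIs of TGFB3, 4.54-fold lower with an interval of 1.25 to 37.5, and 9 UMIs of SMAD7, at 10.4 CPM, 3.90-fold lower (2.05 to 8.54). TGFB1 was level in both sets, at 44.8 CPM in the cluster and 50.7 CPM in the 77 cells, against 41.2 CPM in the stromal-like cells. TGFBR1 was at 16.5 and 23.1 CPM in the same sets, against 17.0 CPM. By the 2-fold rule 2 of 7 genes were apart in the cluster, against 8.55% of all genes, and 5 of 7 in the 77 cells, against 41.8% of all genes.

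**Figure D2:**
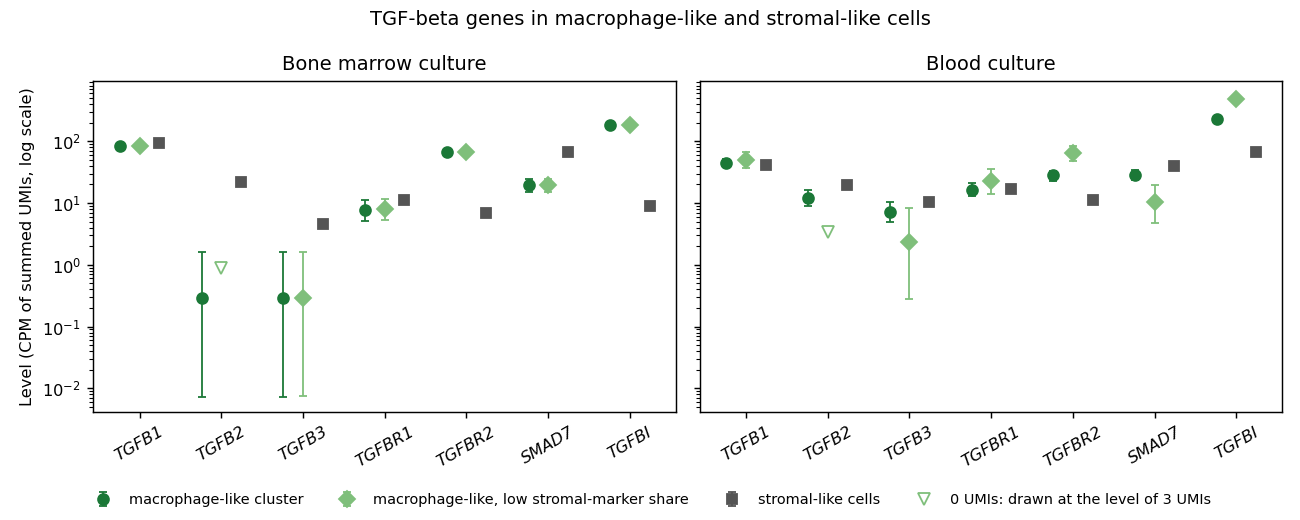
Each panel gives the CPM of the 7 genes on a log scale in 1 culture, for the macrophage-like cluster (circles), its cells of low stromal-marker share (diamonds) and the stromal-like cells (squares), with exact 95% intervals for counting error. An open triangle is a gene with 0 UMIs, drawn at the level of 3 UMIs. TGFBI and TGFBR2 lie above the stroma in both panels, and in blood the diamonds of TGFB2, TGFB3 and SMAD7 lie well below the circles.

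RNA free in the droplet fluid adds counts to every barcode. From the stromal markers, at most 2.95% of the UMIs of the bone marrow macrophage-like cells and at most 5.09% of those of the 77 blood cells could be free RNA. That would give at most 1.25 of the 185 CPM of TGFBI in bone marrow and 3.68 of the 492 CPM in blood, and at most 0.590 of the 66.6 CPM and 0.690 of the 64.6 CPM of TGFBR2. For TGFB2 in the bone marrow cells the bound, 0.272 CPM, is close to the measured 0.289 CPM, so that level is not above background. In the whole blood cluster the stromal markers set no limit on free RNA, since the bound, 114%, exceeds the whole. How much of the cluster's counts was free RNA is therefore not known. The free RNA of that library held TGFBI at 72.2 CPM and TGFBR2 at 13.5 CPM, both below the 226 and 28.0 CPM of the cluster. From the macrophage markers, at most 19.1% of the UMIs of the blood stromal-like cells could be free RNA, or 13.8 of their 66.3 CPM of TGFBI. In the bone marrow stromal-like cells free RNA could give at most 0.672 of the 8.82 CPM of TGFBI.

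Set against each other, the macrophage-like cells of low stromal share in bone marrow (511 cells) and blood (77 cells) had TGFBR2 at 67.3 and 64.6 CPM. TGFBI was at 187 CPM in bone marrow and 492 CPM in blood, 2.64-fold lower in bone marrow (2.33 to 2.99), and TGFBR1 was at 7.94 and 23.1 CPM, 2.91-fold lower (1.55 to 5.38). These were the 2 of 5 genes tested that were apart, against 20.3% of all genes. Most of those genes were lower in bone marrow too, 1148 against 339 higher, with a median log2 ratio of −0.33 over all genes tested. TGFBR1 was below 10 CPM in bone marrow, so it could not be called higher there. TGFBI was thus lower in the bone marrow culture than in the blood culture in macrophage-like cells and in stromal-like cells alike.

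The shares of cells with a UMI gave the same picture once every cell was thinned to 3000 UMIs. A UMI of TGFBI was found in 37.5% of macrophage-like cells (33.3 to 41.9; 193 of 514) and 2.25% of stromal-like cells (187 of 8304) in bone marrow. In blood it was found in 68.8% of the 77 cells (57.3 to 78.9) and 16.2% of stromal-like cells (14.9 to 17.6). Without thinning these shares were 59.7% and 8.14% in bone marrow, and 97.4% and 56.8% in blood, at median depths of 5895, 9108, 9876 and 24924 UMIs. TGFBR2 was found in 16.0% of macrophage-like cells (12.9 to 19.4) and 2.23% of stromal-like cells in bone marrow, and in 20.8% of the 77 cells (12.4 to 31.5) and 3.62% of stromal-like cells in blood. TGFB2 was found in 0 of 514 macrophage-like cells in bone marrow, and in 6.19% of the stromal-like cells. By the limit of 3 counts this allows up to 0.584% of such cells with a UMI at that depth. Without thinning 1 of the 514 cells held a UMI, 0.195%.

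**Figure D3:**
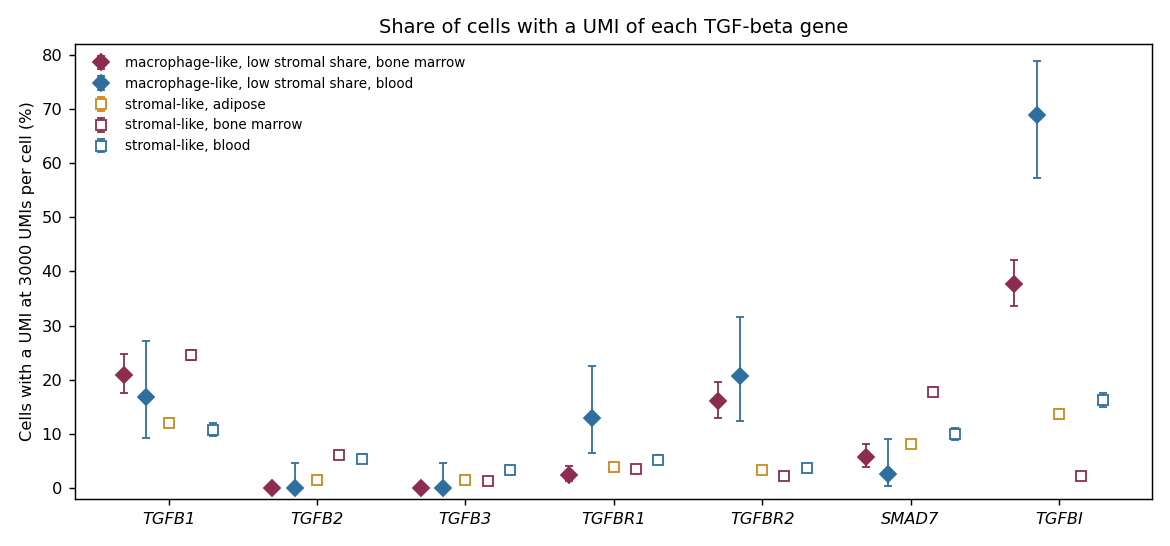
The vertical axis is the share of cells with at least 1 UMI of each gene after thinning every cell to 3000 UMIs, in percent. Filled diamonds are macrophage-like cells of low stromal-marker share (bone marrow, then blood), open squares stromal-like cells (adipose, bone marrow, blood), and bars exact 95% binomial intervals. TGFBI stands out in the macrophage-like cells of blood at 68.8% and of bone marrow at 37.8%, and its share in bone marrow stroma is 2.25%.

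Within the stroma, TGFBI differed between clusters of 1 library, most widely in blood. There it spanned 99.2 CPM in a cluster led by ASPN, an extracellular matrix proteoglycan, and IL6, and 12.1 CPM in a cluster led by LRRN4CL and TIMP3, an inhibitor of metalloproteinases, an 8.17-fold range (6.80 to 9.89). In adipose tissue it spanned 89.0 CPM in a cluster led by ASPN, the smooth muscle actin gene ACTA2 and CCN2, and 33.6 CPM in a cluster led by histone genes, a 2.65-fold range (2.43 to 2.89). In all 5 bone marrow clusters it lay between 7.10 and 12.5 CPM. All 5 bone marrow clusters were therefore below the adipose clusters, and the lowest blood cluster, at 12.1 CPM, was at the level of the bone marrow ones. Over single stromal-like cells at 3000 UMIs, the variance of the TGFBI count was 1.39 times its mean in adipose tissue, 1.38 times in blood and 1.05 times in bone marrow. The means were 0.174, 0.203 and 0.0258 UMIs per cell, and this ratio nears 1 at a low mean. The lower ratio of bone marrow therefore does not show that its cells were more alike. For the other 6 genes this ratio lay between 0.978 and 1.09 in the 3 libraries, at means of 0.0145 to 0.290 UMIs per cell. Their spread over single cells therefore cannot be set against that of TGFBI by this ratio. Before thinning, the highest stromal-like cell held 31 TGFBI UMIs in the adipose library, 5 in the bone marrow library and 28 in the blood library. For TGFB2 the highest cell held 10, 5 and 17 UMIs in the same order.

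The ligands also differed among stromal clusters. In blood their ranges were narrower than that of TGFBI. In bone marrow they were 2.18-fold for TGFB1, 2.19-fold for TGFB2 (1.75 to 2.78) and 2.76-fold for TGFB3 (1.59 to 5.19). There TGFBI had a range of 1.76-fold (1.27 to 2.40), and its interval overlapped those of all 3 ligands, so no order is given. In adipose tissue the intervals of TGFB2 and TGFB3 also overlapped that of TGFBI. TGFB1 in bone marrow was at 126 CPM in a cluster led by histone genes, which are made in S phase, and at 58.0 CPM in a cluster led by IGFBP5, UNC13D and TINAGL1, a 2.18-fold range (1.91 to 2.48). The 4 adipose and 6 blood clusters lay between 32.7 and 56.5 CPM. The lowest bone marrow cluster (398 UMIs) was thus nearly level with the highest blood cluster (638 UMIs), and no order of these clusters is given. TGFB2 was 3.04-fold higher in the ASPN and ACTA2 cluster of adipose tissue (9.10 CPM) than in its histone cluster (2.99 CPM; 2.28 to 4.10), and TGFB3 was 2.66-fold higher in the same pair (8.48 and 3.19 CPM; 2.01 to 3.56). In blood TGFB3 was at 14.3 CPM in a cluster led by ANKRD1 and FST, the activin antagonist follistatin, and at 3.61 CPM in the LRRN4CL and TIMP3 cluster, a 3.96-fold range (2.78 to 5.80). The adipose cluster with the highest TGFBI thus also had the highest TGFB1, TGFB2 and TGFB3 of that library. For TGFB1 the range was only 1.26-fold (1.13 to 1.39). TGFBR2 was highest there too, but its range of 1.24-fold had an interval that includes equal levels (0.999 to 1.56). In blood the highest level of each ligand fell in a different cluster. For the receptors and SMAD7 the clusters of each library lay within 2-fold, and the widest range was SMAD7 in blood, 58.6 CPM in a cluster led by MEOX1 and 31.7 CPM in the ANKRD1 cluster, 1.85-fold (1.65 to 2.09).

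**Figure D4:**
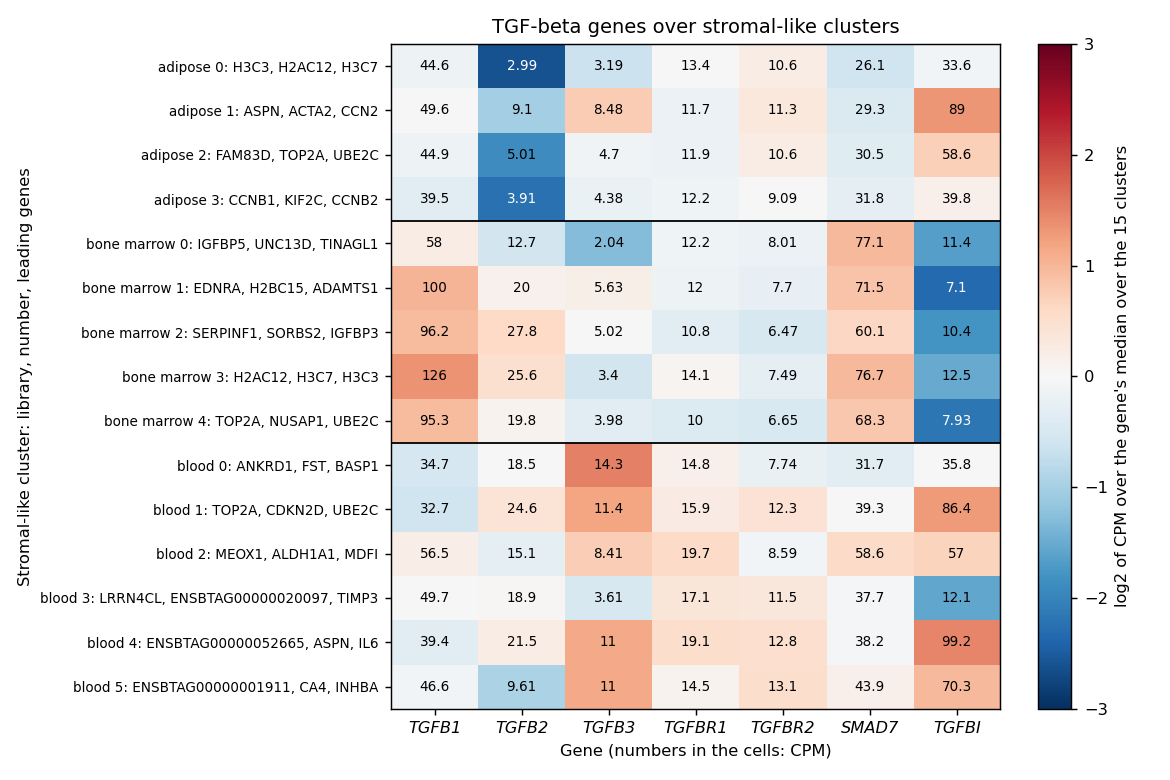
Rows are the 15 stromal-like clusters with the genes that lead them, grouped by library, and columns the 7 genes. Numbers are CPM, and colour is the log2 of the CPM over that gene's median over the 15 clusters. The bone marrow clusters are red for TGFB1 and SMAD7 and blue for TGFBI in every row, with TGFBI at 7.10 to 12.5 CPM, and the adipose clusters are blue for TGFB2.

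Other genes of the pathway were taken from 5 lists of 67 genes in all: latency and activation of the ligands, other receptors and co-receptors, SMAD proteins, negative regulators, and TGF-beta-induced genes. Among regulators, PMEPA1, a TGF-beta-induced inhibitor of SMAD signalling, was at 24.9 CPM in adipose tissue, 203 CPM in bone marrow and 45.6 CPM in blood over all cells. BAMBI, a decoy receptor, was at 3.29, 26.9 and 3.28 CPM. Both were apart in bone marrow from each other library: PMEPA1 was 8.13-fold lower in adipose tissue than in bone marrow and 4.44-fold higher in bone marrow than in blood, and BAMBI was 8.17-fold lower and 8.21-fold higher. These were the 2 of 9 negative regulators apart in each of these pairs, against 8.47% and 8.2% of all genes. In adipose tissue over blood 0 of 8 were apart, against 6.29%. All 4 SMAD proteins tested were within 2-fold in every pair of tissues over all cells. In the stromal-like cells alone SMAD6, counted in both lists, was at 10.1 CPM in adipose tissue and 20.5 CPM in blood, 2.02-fold lower (1.87 to 2.19), against 1.93-fold lower over all cells.

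Genes that store or release the ligands differed too. LTBP1, which binds latent TGF-beta to the matrix, was at 3.99 CPM in adipose tissue, 48.3 CPM in bone marrow and 28.2 CPM in blood. THBS1, thrombospondin 1, an activator of latent TGF-beta, was at 835, 202 and 585 CPM. FURIN, the protease that cleaves the ligand precursors, was at 35.0, 82.5 and 34.3 CPM. Bone marrow thus combined the highest LTBP1 and FURIN with the lowest THBS1. Of the 14 latency genes tested, 1 was higher and 3 lower in adipose tissue over bone marrow, 0 and 2 in adipose tissue over blood, and 1 and 2 in bone marrow over blood, where 8.47%, 6.29% and 8.2% of all genes were apart. MMP9 was among the lower genes in both adipose comparisons, at 0.527 CPM in adipose tissue, 111 CPM in bone marrow and 116 CPM in blood, and 8.34 CPM or less in the stromal-like cells of bone marrow and blood. Among other receptors, TGFBR3, the co-receptor betaglycan, was at 36.2, 6.08 and 12.7 CPM, 5.96-fold higher in adipose tissue than in bone marrow and 2.84-fold higher than in blood.

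The TGF-beta-induced genes did not move as 1 group. In adipose tissue over bone marrow 3 of 24 were higher and 4 lower, with a median log2 ratio of −0.14 against 0.08 for all genes, of which 8.47% were apart. CNN1, a smooth muscle calponin, was 5.92-fold higher and THBS1 4.12-fold higher in adipose tissue. SPHK1, sphingosine kinase 1, was 14.6-fold lower (1.55 and 22.7 CPM) and PMEPA1 8.13-fold lower. In adipose tissue over blood 2 of 23 were higher and 6 lower, with a median of −0.57 against 0.09 and 6.29% of all genes apart. The insulin-like growth factor binding protein gene IGFBP3 was 10.8-fold higher and POSTN, periostin, 4.64-fold higher, while IGFBP5 was 3.74-fold lower and FN1, fibronectin, 3.42-fold lower (195 and 668 CPM). In bone marrow over blood 4 of 24 were higher, among them SPHK1 (17.1-fold), IGFBP3 (11.7-fold) and POSTN (9.43-fold), and 8 lower, among them IGFBP5 (5.16-fold), with a median of −0.57 against 0.01 and 8.2% of all genes apart. The low TGFBI of bone marrow thus stood beside both higher and lower genes of the list.

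Between cell types the same list had 1 direction in bone marrow. In the bone marrow macrophage-like cells 19 of 24 TGF-beta-induced genes were lower than in the stromal-like cells and 0 higher, with a median log2 ratio of −3.92. Of all 7853 genes 52.1% were apart, 2756 lower and 1334 higher, and their median was −0.51. TAGLN (transgelin) and IGFBP5 had 0 UMIs in the macrophage-like cells, at least 33.6-fold and 30.0-fold lower against a floor of 3 UMIs. LOX, lysyl oxidase, was 91.8-fold lower (4 UMIs in the macrophage-like cells), and IGFBP3, with 2 UMIs, was 102-fold lower with an interval of 28.2 to 843. In the 77 blood cells 15 of 22 were lower and 2 higher, with a median of −3.98, or −3.82 with the 2 genes at 0 UMIs set at their floor, against −0.16 for all genes, of which 41.8% were apart (1531 higher and 1855 lower). There CNN1 and LTBP2 had 0 UMIs, at least 12.4-fold and 41.3-fold lower. In the whole blood cluster 1 of 21 was lower, CNN1 (2.29-fold), and 0 higher, against 8.55% of all genes apart. TGFBI was thus higher in macrophage-like cells while most genes of the list were lower, many of them matrix and contractile genes by which stroma is known.

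The remaining lists differed between the cultures. In bone marrow, where 1334 of 7853 genes were higher, 2756 lower and the median of all genes was −0.51, 8 of 14 latency genes were lower and 3 higher, with a median of −1.47. DCN, decorin, was 90.1-fold lower and FBN1, fibrillin 1, was 61.9-fold lower. Both are among the stromal markers used to name the classes and to pick the cells of low stromal share. Their low level in macrophage-like cells was therefore partly built in, and the 14 latency genes of both cultures include them. LTBP1, with 2 UMIs in the macrophage-like cells, was 88.7-fold lower with an interval of 24.5 to 732. The protease gene MMP9 was 322-fold higher, at 1615 CPM in macrophage-like cells and 5.01 CPM in stromal-like cells, and FURIN and MMP14 were the other higher genes. Of 9 negative regulators 5 were lower and 0 higher (median −1.10), a share apart near the 52.1% of all genes: BAMBI had 2 UMIs in the macrophage-like cells, PMEPA1 was 16.4-fold lower, SMURF2, a ubiquitin ligase that targets the receptors, was 4.71-fold lower, and SMAD6, an inhibitory SMAD, was 4.41-fold lower. SMAD4, the shared partner of the signalling SMADs, was at 28.9 CPM in macrophage-like cells and 58.1 CPM in stromal-like cells, 2.01-fold lower. This is at the edge of the rule: in the 511 cells of low stromal share SMAD4 was at 29.1 CPM and within 2-fold, and the TMM shift given below would also bring it within 2-fold. In the 77 blood cells, where 41.8% of all genes were apart with a median of −0.16, 8 of 14 latency genes were lower and 4 higher (median −1.47), 1 of 8 negative regulators was lower (SMURF2) and 1 higher (TGIF1, a corepressor), and 0 of 4 SMAD proteins were apart. In the whole blood cluster, with 8.55% of all genes apart, 2 of 14 latency genes were higher, MMP9 and FURIN, and 0 of 8 negative regulators and 0 of 4 SMAD proteins were apart. Of other receptors, 1 of 3 was lower in bone marrow (BAMBI), with a median of −0.18. In the 77 blood cells ACVR2A and TGFBR3 were lower and ACVR2B was higher, of 5 tested, and 0 of 4 were apart in the whole blood cluster.

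**Figure D5:**
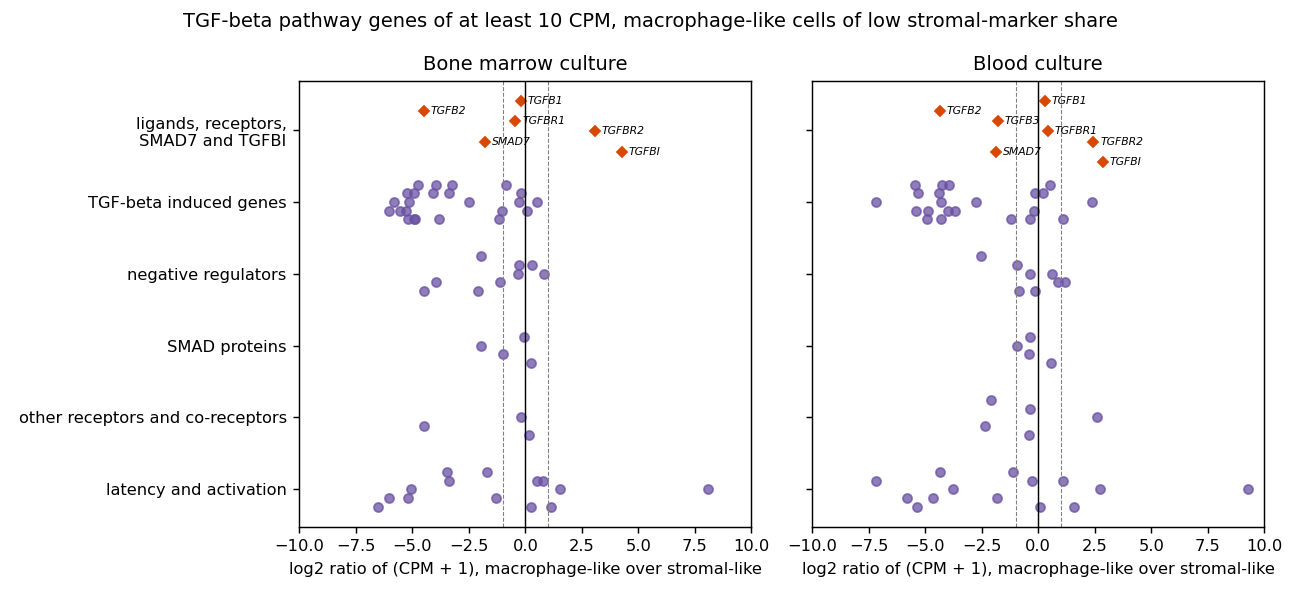
Points are genes of at least 10 CPM in either group, placed by the log2 ratio of CPM + 1 in macrophage-like cells of low stromal-marker share over stromal-like cells, with dashed lines at 2-fold; orange diamonds are the ligands, receptors, SMAD7 and TGFBI (TGFB3 is below 10 CPM in bone marrow and not drawn there). Most TGF-beta-induced genes lie left of the lines, while TGFBI and TGFBR2 lie right of them in both cultures; the far point of the latency list is MMP9.

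Scaling matters for the bone marrow cell types. TMM factors raised every ratio of macrophage-like over stromal-like cells there by 0.32 on the log2 scale, and median-of-ratios factors by 0.35. Over all genes they changed 1334 higher and 2756 lower to 1642 and 2041 with TMM factors and to 1683 and 1978 with median-of-ratios factors. The calls of the 7 genes stayed 4 of 6 under both. TGFB1 turned sign, from 1.14-fold lower to at most 1.12-fold higher, and was within 2-fold throughout. In blood the shift was at most 0.09, and between tissues at most 0.07.

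Genes with the most similar pattern were ranked by the Pearson correlation of log2(CPM + 1) over the 18 clusters of at least 50 cells. The 18 points come from 3 libraries and share their depth and composition, so the coefficients are descriptions over clusters and carry no p. For TGFBI the nearest of 3926 genes were LHFPL2 (r = 0.93), GPNMB (0.91), a glycoprotein of macrophages, and BLVRB (0.91), biliverdin reductase B. For TGFBR2 they were FKBP15, ATP6V0E1, a subunit of the vacuolar proton pump, and MITF, a transcription factor (all 0.97). For TGFB2 they were LUM, lumican (0.97), LMO7 (0.96) and FN1 (0.95). SMAD7 was nearest to MYO10, an unconventional myosin (0.97), MDFI (0.96) and PHLDA1 (0.94). For TGFB1 the nearest were SLC25A13, TXNDC17 and MTUS1 (all 0.92), for TGFB3 STEAP1, RCN1 and YIF1A (all 0.90), and for TGFBR1 EMP1, PDIA3 and CAST (all 0.87). Over the 15 stromal-like clusters alone LHFPL2 again ranked 1 for TGFBI (0.95), followed by SFRP2 and NR3C1 (both 0.93). The first-ranked gene changed for every other gene described. All 3 changed for TGFBR2 (to FIBP, CD99 and TP53BP1) and for TGFB1 (to FNDC1, ENPP1 and MTSS1). LUM, YIF1A, CAST and MDFI stayed among the 3 nearest of TGFB2, TGFB3, TGFBR1 and SMAD7.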

How the data were processed

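The deposited matrices hold raw UMI counts per gene and barcode. Cell Ranger version 4 is named per the file headers, and version 6.1.1 and the genome build ARS-UCD1.2 in the submitters' processing notes. A cell needed over 1 part in 10 of the UMIs at percentile 99 of the 3000 deepest barcodes, at least 500 genes and at most 20% mitochondrial UMIs. Each library was clustered alone in scanpy 1.11.5 (Leiden, resolution 0.5; 2000 variable genes, 30 components, 15 neighbours), without the 7 genes and the pathway lists. Classes came from markers. Stromal-like clusters also needed 0.5 times the library's median stromal share, a condition chosen after seeing the data. Levels are CPM of summed counts. Alternatives used edgeR 4.0.16 and DESeq2 1.42.0 factors only for scaling. With 1 library per tissue and 1 cow no test was made. The genes and lists were chosen with earlier results of these data known. Named are all 7 genes, at most 4 called genes of largest fold per list and comparison, and 3 most similar genes for each of the 7. Genes outside this rule (LTBP1 in bone marrow over blood, FURIN and MMP14 between cell types, cluster-leading genes) were named after their values were seen. The ratio intervals were tested on simulated data. No genome sequence was used here.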

Additional observations from a re-analysis of the deposited data

How the results depend on the processing

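The number of the 7 genes at least 2-fold apart stayed within 1.5 times in adipose tissue over bone marrow (4; 3 to 4), bone marrow over blood (3; 2 to 3) and macrophage-like over stromal-like cells of bone marrow (4; 3 to 5) under every alternative run. In adipose tissue over blood the count of 1 became 2 with TMM factors, 2 with median-of-ratios factors (TGFB3 crossing the mark) and 0 with a 50 CPM minimum, which tests fewer genes. In macrophage-like over stromal-like cells of blood the count of 2 became 4 with the mean CPM of single cells and 1 with a 50 CPM minimum. It became 5 at resolution 1.0, 5 with classes from marker shares, 5 for cells of low stromal-marker share, and 5 with all barcodes of at least 1000 UMIs, the last chosen after seeing the data. Of the log2 ratios of single genes, 0 called values changed sign. For adipose tissue over bone marrow, adipose tissue over blood and bone marrow over blood, 17, 13 and 12 of 70 values left the counting interval of the reported value. For macrophage-like over stromal-like cells 26 of 74 values left it in blood and 11 of 74 in bone marrow. The ratios between tissues whose linear fold changed by over 1.5 times were TGFBI without macrophage-like cells (above), and TGFB3, TGFBR2 and TGFBI in G1-phase cells: TGFB3 in adipose tissue over bone marrow became 1.01 from 0.33 and over blood −0.22 from −0.95, TGFBR2, never called, became −0.57 from 0.09 and, in bone marrow over blood, 0.46 from −0.23, and TGFBI in bone marrow over blood became −1.25 from −1.95. The cause was not tested. Depth limits the 77 blood cells. It also limits TGFB2 and TGFB3, which rest on 0 to 2 UMIs in those cells and in the bone marrow macrophage-like cells. The whole blood cluster had 50 UMIs of TGFB2 and 30 of TGFB3. No paired analysis was possible because each group has 1 library.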

Other observations

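The 39 endothelial-like cells of the adipose culture had a profile of their own. TGFB2 was at 48.0 CPM in these cells (21 UMIs) and 5.55 CPM in the stromal-like cells, 8.65-fold higher (5.31 to 13.4), and TGFBR2 was at 48.0 CPM, against 10.6 CPM, 4.53-fold higher (2.79 to 6.96). TGFBI was at 13.7 CPM (6 UMIs), against 59.0 CPM in the stromal-like cells, 4.30-fold lower (1.98 to 11.7). SMAD7 was at 57.1 CPM, against 29.4 CPM, 1.94-fold higher, just inside 2-fold. By the same rule 3 of 6 of the genes were apart, against 24.3% of all genes. TGFB2 reached 10 CPM only in the endothelial-like cells, so it could not be called lower. These cells gave 3.87% of the TGFB2 UMIs of the adipose library from 0.461% of all its UMIs.

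Of 6 other receptors and co-receptors tested in the same cells, 4 were higher and 1 lower than in the stromal-like cells. The lower one was TGFBR3, with 2 UMIs at 4.57 CPM, against 36.5 CPM, 7.99-fold lower with a counting interval of 2.21 to 66.0. ENG, endoglin, was at 606 CPM in the endothelial-like cells and 53.9 CPM in the stromal-like cells, and ACVRL1, the type I receptor ALK1 of BMP9 signalling, was at 41.1 CPM, against 0.0531 CPM (5 UMIs in 6026 cells). The inhibitors SMAD6 (96.0 CPM, against 10.1 CPM) and PMEPA1 (160 CPM, against 24.4 CPM) were also higher: 5 of 10 negative regulators were higher and 0 lower. Both list counts stand against the share of all genes given above for these cells. ACVRL1, ACVR2A, LDLRAD4 and BAMBI, which is in both lists, reached 10 CPM only in the endothelial-like cells and could not be called lower. BAMBI and LDLRAD4 had 6 UMIs there, and ACVR2A had 7, with a ratio interval of 0.818 to 4.23. Of 12 endothelial markers 8 were at 50 CPM or more. The stromal markers summed to 3097 CPM in these cells, against 9010 CPM in the stromal-like cells, and their part in the levels was not tested.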
